A study of Mus musculus with 7 samples.

Results

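Ribosome biogenesis and RNA polymerase I are described here through 58 genes of the 52636 in the deposited count table. They fall into 6 role classes: 8 genes of polymerase I and its initiation factors, 8 of small nucleolar ribonucleoprotein (snoRNP) proteins, 4 of abundant nucleolar proteins, 12 of the small-subunit processome, 6 of late small-subunit maturation and 20 of large-subunit assembly. The genes were chosen by name from values of the Maf KO against control contrast that were already known, so their levels in that contrast are given as a description, with no p-value, and support nothing. Polyadenylated RNA was sequenced from endothelial cells that had been sorted out of mouse liver, in 4 libraries with a knockout (KO) of Maf and 3 control libraries. Maf encodes c-Maf, a basic leucine zipper transcription factor. The labels tell the groups apart by genotype alone. The deleted stretch of Maf, any Cre driver, the strain, the age, the sex and any pooling of mice are not stated in the sources at hand. The labels do not say that libraries came from separate mice, so p-values reflect library-to-library spread, part of which may be technical.

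A cell makes its ribosomes mostly in the nucleolus, where RNA polymerase I transcribes a long precursor that holds several ribosomal RNAs. The small-subunit processome folds and cuts the precursor as it is made, snoRNPs guide methylation and pseudouridylation, and separate sets of factors carry the particles of each subunit through the nucleus to the cytoplasm. Growing and dividing cells run this pathway at a high rate, and transcription factors of the MYC family are known to raise many of its genes. Most cells of adult liver endothelium are quiescent.

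Maf itself stood at 28.9, 159, 124 and 37.7 CPM in KO 1 to 4, against 1664, 2088 and 2147 CPM in controls 1 to 3, so that the KO libraries kept 1.47, 8.08, 6.33 and 1.92% of the mean control level. Library depth lay between 24772716 and 32960007 counts. Levels are CPM, counts scaled to a common library total, after adjustment by the trimmed mean of M-values (TMM), which estimates each library's scale from the bulk of genes. Means are given ± SD over 4 KO and 3 control libraries. A log2 fold change is KO over control, with its standard error (SE), and a gene is said to have risen or fallen where edgeR's quasi-likelihood test gave a Benjamini-Hochberg adjusted p under 0.05 over 15512 genes tested. The 12 endothelial markers summed to 12147.6 to 17078.7 CPM in KO libraries and 33446.5 to 37795.0 CPM in control libraries. All 12 were detected in every library, Cdh5, a junction protein of all endothelium, at 1196 to 1903 CPM in KO libraries and 1859 to 2045 CPM in control libraries. In the KO 9 of them fell, 1 rose and 2 did not pass. Markers of T and NK cells summed to 0.57 CPM or less in any library. In bulk samples such as these, fewer cells of a type and less RNA per cell cannot be told apart.

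Most of the genes stood higher in KO endothelium. All 58 had a row in the table and 57 passed the filter on low counts. Of those 57, 46 rose, 0 fell and 11 did not pass. DESeq2 and limma-voom also gave 46 risen and 0 fallen, and at an unadjusted edgeR p under 0.05 there were 47 higher and 1 lower. Over all 15512 genes tested 23.0% rose and 22.2% fell. Because the contrast chose the genes, nothing is read from that difference. Counts for each role class below stand beside the same shares of all genes tested. The median log2 fold change of the 57 genes was 0.67 (quartiles 0.36 and 0.84), beside 0.04 over all genes tested (quartiles -0.35 and 0.48). The lowest value was -0.27, in Utp14a, and the highest was 1.58, in Polr1e. Wdr74, a large-subunit assembly factor, had 3 counts in all 7 libraries together and was not tested. Its counts were 0, 1, 0 and 1 in KO 1 to 4 and 1, 0 and 0 in controls 1 to 3, each at or under the limit of 3 counts that a count of 0 allows.

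**Figure D1:**
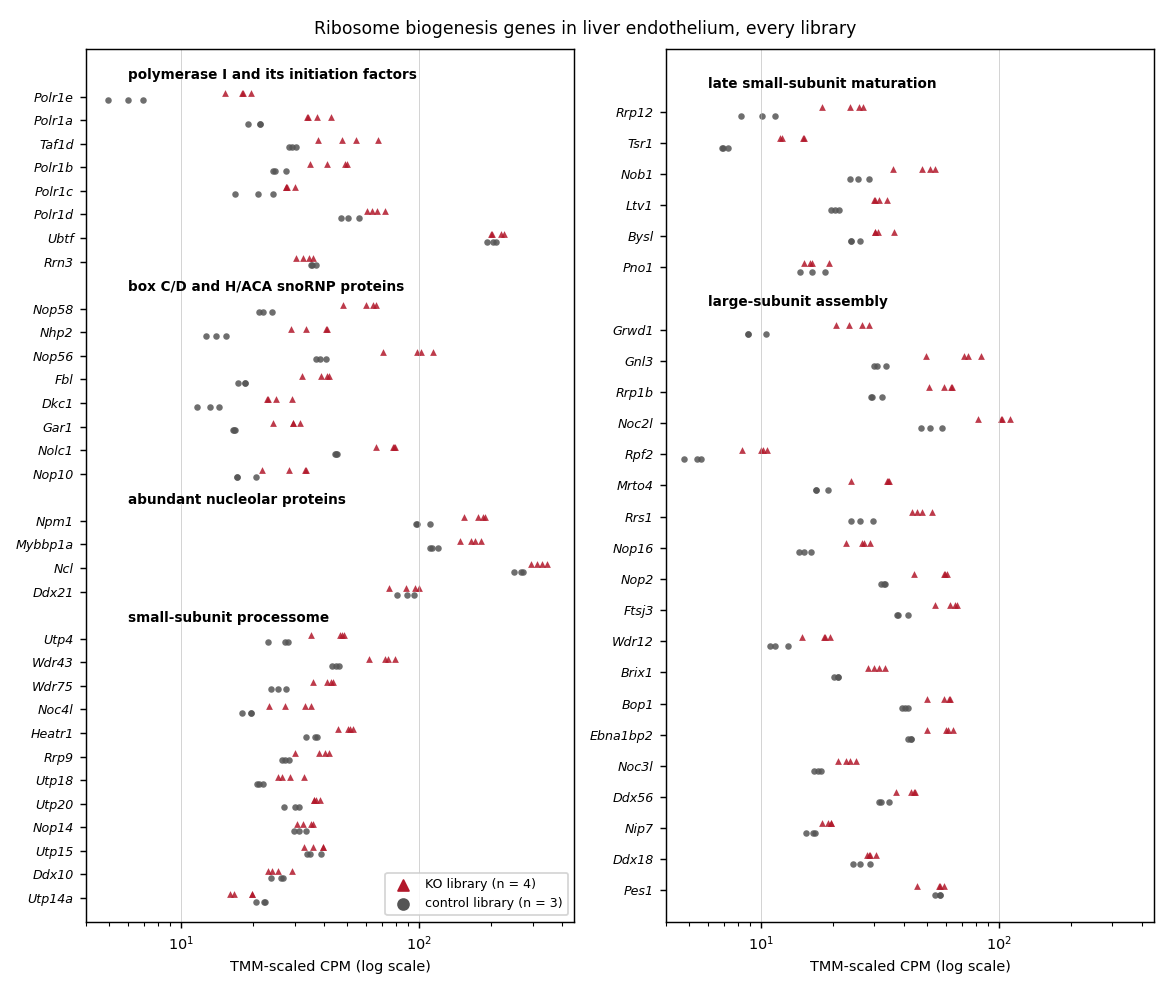
TMM-scaled CPM on a log scale for the 57 tested genes, in 6 role classes, with a red triangle per KO library (n = 4) and a grey circle per control library (n = 3). Genes run from the largest to the smallest log2 fold change within a class, and the red and grey points are apart in 48 of the 57 rows.

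In 47 of the 57 genes every KO library stood above every control library, a pattern seen in 25.6% of all genes tested. In 1 gene, Utp14a, every KO library stood below every control library. The remaining 9 overlapped. The 58 genes summed to 3127.8, 3287.4, 2763.9 and 3100.5 CPM in KO 1 to 4, against 2121.1, 2110.9 and 2129.4 CPM in controls 1 to 3. The mean sums were 3069.9 ± 220.0 CPM in the KO and 2120.4 ± 9.26 CPM in controls (SD, n = 4 and 3). KO 3 was the lowest of the KO libraries and still lay above each control.

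Over the 57 genes the KO libraries had the larger median spread. The median coefficient of variation over the 57 genes was 10.6% in KO libraries, with a range of 3.12% in Utp20 to 23.9% in Taf1d. In control libraries it was 6.18%, with a range of 0.778% in Gar1 to 18.1% in Polr1c. KO 3 was the lowest KO library in 45 of the 57 genes, KO 1 and KO 4 in 6 each and KO 2 in 0. KO 2 was the highest KO library in 30. Per the labels, lane 4 held KO 3 and control 3, and lane 5 held the rest. Within lane 4 the single KO library stood above the single control in 52 of the 57 genes, with a median log2 ratio of 0.37, and no test is possible there. In the 5 libraries of lane 5, the 57 genes had a median log2 fold change of 0.71 and 44 rose, all 44 among the 46. Of all 15826 genes tested in lane 5, 3069 rose and 3830 fell.

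**Figure D2:**
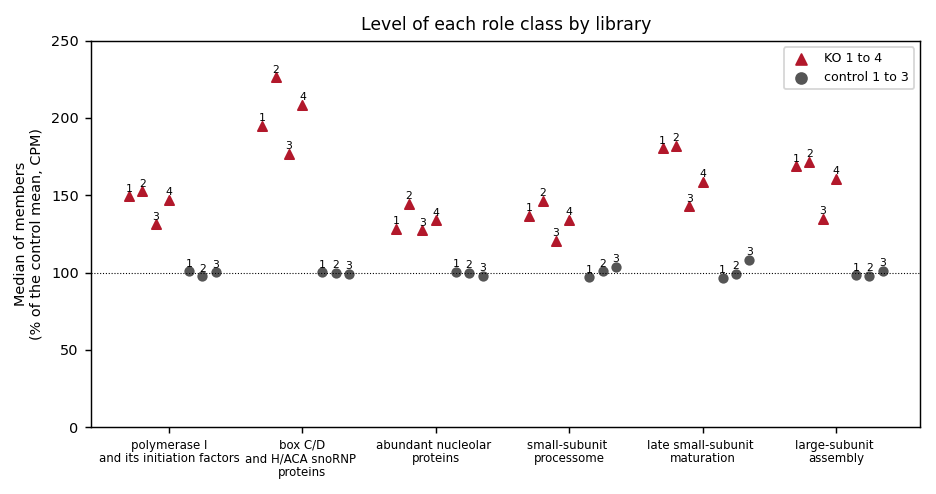
Median over the tested genes of each role class of the level in a library as a percentage of that gene's control mean, with red triangles for KO 1 to 4, grey circles for controls 1 to 3 and a dotted line at 100%. The snoRNP proteins stand highest, at 177 to 226% in KO libraries, and KO 3 is the lowest KO library in each class.

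One sequence feature that the choice of genes did not use was looked up in their promoters. The palindrome CACGTG, the E-box that MYC with its partner MAX and other basic helix-loop-helix factors can bind, was looked for in windows from 250 bases before to 50 bases after the start of transcription. RefSeq windows (build GRCm38.p6) were matched by symbol for 53 of the 58 genes. Fbl, Npm1, Rrp12, Bop1 and Rrs1 had none. CACGTG stood in the first window of 13 of the 53 genes (24.5%). It stood in the first window of 1070 of 10787 tested genes with a window (9.92%) and in 2349 of all 32851 windows (7.15%). The 13 genes are Rrn3, Mybbp1a, Wdr43, Utp4, Utp18, Utp20, Ltv1, Pno1, Tsr1, Nop2, Pes1, Grwd1 and Rpf2. TGCTGA, the core of a Maf recognition element, was searched on both strands, counted apart from any overlap with CACGTG, and stood in 8 of the 53 windows (15.1%) against 15% of the first windows of tested genes and 19.5% of all windows.

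Log2 fold changes with and without this match covered much the same range. The median log2 fold change was 0.61 in the 13 genes with CACGTG (range -0.11 to 1.40) and 0.64 in the 39 tested genes without it (range -0.27 to 1.58). A match is a run of letters and no evidence of binding. The windows of 4 genes are printed because they hold the same letters near the start of genes with different responses. Grwd1, a chaperone of a large-subunit ribosomal protein, and Tsr1, a late small-subunit factor, rose. Rrn3, which recruits polymerase I to its promoter, and Pes1, a large-subunit factor, did not pass. Capitals mark CACGTG and positions count from 1 at the start of transcription, with no position 0. In Grwd1 it begins at position 35 of the window at chr7:45830740-45831039, minus strand. In Tsr1 it begins at position 25 of the window at chr11:74897830-74898129, plus strand. The Rrn3 window, chr16:13780449-13780748 on the plus strand, holds it at positions -215 and -48. The Pes1 window, chr11:3963725-3964024 on the plus strand, holds it at position 3.
Grwd1: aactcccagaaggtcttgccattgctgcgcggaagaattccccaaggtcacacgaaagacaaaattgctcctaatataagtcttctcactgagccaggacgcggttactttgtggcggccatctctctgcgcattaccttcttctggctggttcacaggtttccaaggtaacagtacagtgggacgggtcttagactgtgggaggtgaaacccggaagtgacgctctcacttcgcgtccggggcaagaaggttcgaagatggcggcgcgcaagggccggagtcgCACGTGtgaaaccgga
Tsr1: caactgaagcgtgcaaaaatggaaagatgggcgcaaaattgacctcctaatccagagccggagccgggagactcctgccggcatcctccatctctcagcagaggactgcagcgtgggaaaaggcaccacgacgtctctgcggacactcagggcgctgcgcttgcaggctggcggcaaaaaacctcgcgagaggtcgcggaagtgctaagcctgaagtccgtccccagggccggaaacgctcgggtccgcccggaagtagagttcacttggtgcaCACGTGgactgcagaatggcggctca
Rrn3: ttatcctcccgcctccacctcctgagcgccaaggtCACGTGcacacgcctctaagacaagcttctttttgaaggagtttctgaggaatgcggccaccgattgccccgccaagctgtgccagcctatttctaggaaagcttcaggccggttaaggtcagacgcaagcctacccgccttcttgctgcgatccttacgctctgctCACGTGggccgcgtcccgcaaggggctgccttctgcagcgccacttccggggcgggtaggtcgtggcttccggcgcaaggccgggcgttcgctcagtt
Pes1: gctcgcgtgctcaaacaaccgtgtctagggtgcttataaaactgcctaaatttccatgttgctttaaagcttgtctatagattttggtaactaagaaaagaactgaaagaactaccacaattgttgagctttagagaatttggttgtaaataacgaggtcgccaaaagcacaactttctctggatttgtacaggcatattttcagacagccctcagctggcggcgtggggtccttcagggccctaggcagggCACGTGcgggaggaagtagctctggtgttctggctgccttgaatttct

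The levels of these 4 genes follow. Grwd1 stood at 23.4, 26.7, 20.7 and 28.5 CPM in KO 1 to 4, against 8.85, 8.83 and 10.5 CPM in controls 1 to 3. Every KO library was above every control, and the log2 fold change was 1.40 (SE 0.14). Tsr1 averaged 13.7 ± 1.71 CPM in KO libraries and 7.01 ± 0.203 CPM in controls, with a log2 fold change of 0.96 (SE 0.13) and no overlap between the groups. Its annotated exons overlap those of Srr on the other strand, and without a stated strand setting reads of that stretch cannot be assigned to one of them. In all, 21 of the 58 genes have an annotated exon overlap of this kind. It takes up over 10% of the exon length in 3 of them, Tsr1 (32.3%), Noc2l (20.9%) and Utp14a (11.5%). The share does not tell how abundant the other gene is. The genes that overlap Noc2l and Utp14a had 10 and 110 counts in the 7 libraries. Overlaps of a smaller share include Mybbp1a with Spns2, at 40253 counts, and Dkc1 with Mpp1, at 24492 counts beside 4167 for Dkc1. Rrn3 stood at 32.5, 34.4, 35.7 and 30.3 CPM in KO 1 to 4, against 35.2, 36.8 and 35.6 CPM in controls 1 to 3. KO 1, KO 2 and KO 4 lay under all controls and KO 3 lay among them, with a log2 fold change of -0.11 (SE 0.084). Pes1 stood at 45.4, 58.5, 55.96 and 56.5 CPM in KO 1 to 4, against 53.8, 56.3 and 56.6 CPM in controls 1 to 3. The groups overlapped, KO 1 being the lowest library and KO 2 the highest, and the log2 fold change was -0.04 (SE 0.097).

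RNA polymerase I itself stood higher in KO endothelium in the 5 subunits listed. Polr1e, which with its partner subunit Polr1g helps the enzyme start and elongate, had the largest rise of all 57 genes. Polr1e (ENSMUSG00000028318, chromosome 4, 45018583 to 45036565, plus strand, GRCm38) stood at 19.7, 18.0, 15.4 and 18.3 CPM in KO 1 to 4, against 6.01, 4.91 and 6.93 CPM in controls 1 to 3. The lowest KO library was well above the highest control, and the fold change was 3.00 (log2 1.58, SE 0.15). Polr1a, the largest subunit with the catalytic centre, averaged 37.03 ± 4.05 CPM in KO libraries and 20.7 ± 1.35 CPM in controls, a log2 fold change of 0.84 (SE 0.11). Polr1b, the other part of the active site, averaged 43.7 ± 7.17 CPM in KO libraries and 25.6 ± 1.82 CPM in controls, a log2 fold change of 0.77 (SE 0.13). Polr1c and Polr1d, which polymerase III also uses, had smaller values of 0.45 (SE 0.12) and 0.36 (SE 0.093). Neither Polr1c nor Polr1d held its call in every alternative setting.

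Of the 3 initiation factors 1 rose. Ubtf, which binds along the ribosomal DNA and bends it, was the most abundant of this class at 204, 227, 221 and 201 CPM in KO 1 to 4, against 204, 212 and 193 CPM in controls 1 to 3. The libraries of the groups interleaved, and the log2 fold change was 0.07 (SE 0.09). Taf1d, a subunit of the selectivity factor that recognises the promoter, averaged 51.6 ± 12.3 CPM in KO libraries and 29.4 ± 1.00 CPM in controls, with a log2 fold change of 0.81 (SE 0.17). Rrn3 is given above with its promoter. In all, 6 of the 8 genes of this class rose, and its median log2 fold change was 0.61. Per kilobase of exon, which allows genes to be compared, mean levels over the 7 libraries ran from 2.53 CPM per kb in Polr1a through 3.27 in Polr1e, 6.19 in Polr1b, 11.01 in Polr1c and 19.5 in Polr1d to 31.9 in Ubtf.

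Proteins of the snoRNPs made the class with the highest median, 1.01 on the log2 scale, and all 8 rose. Box C/D particles guide methylation of ribosomal RNA. Nop58, a core protein of these particles (ENSMUSG00000026020, chromosome 1, 59684971 to 59719044, plus strand), stood at 64.2, 65.7, 47.99 and 60.02 CPM in KO 1 to 4, against 21.2, 22.1 and 24.2 CPM in controls 1 to 3. Nop56, its partner and the most abundant gene of the class, stood at 114, 102, 70.6 and 98.3 CPM in KO 1 to 4, against 37.1, 38.4 and 40.8 CPM in controls 1 to 3. In both genes KO 3 was the lowest KO library and lay above all controls. The log2 fold changes were 1.40 (SE 0.12) for Nop58 and 1.31 (SE 0.15) for Nop56. Fbl, the methyltransferase fibrillarin, averaged 38.4 ± 4.27 CPM in KO libraries and 18.2 ± 0.753 CPM in controls, a log2 fold change of 1.08 (SE 0.11).

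H/ACA particles guide pseudouridylation, and their 4 core proteins all rose. Nhp2 averaged 36.1 ± 5.79 CPM in KO libraries and 14.1 ± 1.41 CPM in controls, a log2 fold change of 1.36 (SE 0.14). Dkc1, the pseudouridine synthase dyskerin, had a log2 fold change of 0.94 (SE 0.12) and Gar1 one of 0.78 (SE 0.1). Nop10, the smallest value of the class, stood at 28.4, 33.1, 21.9 and 33.7 CPM in KO 1 to 4, against 20.7, 17.2 and 17.2 CPM in controls 1 to 3. KO 3 was the KO library closest to the controls, and the log2 fold change was 0.67 (SE 0.16). Nolc1, a nucleolar chaperone of both kinds of particle, averaged 75.5 ± 6.26 CPM in KO libraries and 44.7 ± 0.506 CPM in controls, a log2 fold change of 0.76 (SE 0.086).

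The gene bodies of 8 of the 57 genes hold annotated snoRNA genes, 29 in all. Taf1d holds 8, Nop56 5, Nop58 4, Ncl, Wdr43 and Gnl3 3 each, Tsr1 2 and Dkc1 1. All 8 host genes rose, beside 46 of the 57 genes (80.7%), with a median of 0.95 on the log2 scale and a range of 0.28 to 1.40. Among the hosts, Nop56, Nop58 and Dkc1 are of the snoRNP class, whose median was the highest at 1.01. The median was 0.60 in the 49 other genes, with a range of -0.27 to 1.58. Counts of host genes here come from polyadenylated RNA and do not measure the snoRNAs. Annotated exons of some hosts, Taf1d and Nop56 among them, overlap snoRNA genes on the same strand. It is therefore not known that all the RNA counted was spliced.

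The abundant nucleolar proteins rose by less, with a median of 0.41 on the log2 scale and 3 of 4 past the threshold. Ncl, nucleolin, which binds the precursor and was the most abundant of all 57 genes in CPM, stood at 296, 344, 329 and 313 CPM in KO 1 to 4, against 274, 267 and 250.4 CPM in controls 1 to 3. All KO libraries were above all controls by a narrow margin, KO 1 being closest to them, and the log2 fold change was 0.28 (SE 0.096). The call of Ncl was lost in 12 of the 19 alternative settings, more often than that of any other of the 46. Npm1, nucleophosmin, a histone and ribosome chaperone, had the highest level per kilobase at 66.1 ± 5.77 CPM per kb in KO libraries and 38.3 ± 2.85 CPM per kb in controls (SD, n = 4 and 3). In CPM it stood at 176, 189, 154 and 185 CPM in KO 1 to 4, against 111, 98.5 and 96.8 CPM in controls 1 to 3, with no overlap and a log2 fold change of 0.79 (SE 0.1). Processed copies that match Npm1 over at least 300 bases at 95% identity held 1.30% of the summed counts. Mybbp1a, a partner of polymerase I and of MYB, averaged 167 ± 13.9 CPM in KO libraries and 115 ± 4.70 CPM in controls, a log2 fold change of 0.54 (SE 0.093). Ddx21, a helicase that links polymerase activity to processing, stood at 88.0, 96.5, 100.4 and 74.6 CPM in KO 1 to 4, against 80.9, 94.97 and 89.3 CPM in controls 1 to 3. KO 3 was the highest library and KO 4 the lowest, the groups overlapped, and the log2 fold change was 0.02 (SE 0.11).

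The small-subunit processome was mixed, with 8 of 12 genes risen, 4 not past the threshold and a median of 0.43 on the log2 scale. The largest value was in Utp4, of the subcomplex that binds the precursor first (ENSMUSG00000041438, chromosome 8, 106893636 to 106923088, plus strand), at 47.5, 48.4, 35.3 and 46.4 CPM in KO 1 to 4, against 27.4, 23.1 and 28.1 CPM in controls 1 to 3. KO 3 stood apart below the other KO libraries and above the controls, and the log2 fold change was 0.76 (SE 0.13). Wdr43, of the same subcomplex and the most abundant of the class, stood at 71.8, 79.3, 61.5 and 73.8 CPM in KO 1 to 4, against 44.9, 43.1 and 46.1 CPM in controls 1 to 3, with no overlap and a log2 fold change of 0.68 (SE 0.096). Other genes of that subcomplex were Wdr75 at 0.67 (SE 0.098), Heatr1 at 0.49 (SE 0.085) and Utp15 at 0.04 (SE 0.096) on the log2 scale, of which Utp15 did not pass.

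Other processome genes are given with their partners, and differences between partners were not tested. Noc4l averaged 29.8 ± 5.44 CPM in KO libraries and 19.1 ± 0.975 CPM in controls, a log2 fold change of 0.64 (SE 0.14). Its partner Nop14 averaged 33.5 ± 2.33 CPM in KO libraries and 31.6 ± 1.93 CPM in controls, a log2 fold change of 0.08 (SE 0.089) that did not pass. Rrp9, a protein of the snoRNP at the centre of the processome, had 0.45 (SE 0.12), the scaffold gene Utp20 0.33 (SE 0.083) and Utp18 0.41 (SE 0.1). Ddx10, a helicase, had -0.01 (SE 0.1) and did not pass. Utp14a, whose yeast counterpart activates a helicase that takes the processome apart, stood at 16.7, 19.8, 16.03 and 19.9 CPM in KO 1 to 4, against 20.7, 22.5 and 22.3 CPM in controls 1 to 3. Each KO library was lower than each control, though KO 2 and KO 4 came close to control 1, and the log2 fold change of -0.27 (SE 0.11) did not pass.

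Late maturation of the small subunit, which ends in the cytoplasm, had 5 of 6 genes risen and a median of 0.74 on the log2 scale. Rrp12, known from yeast as an export factor and the largest value of the class (ENSMUSG00000035049, chromosome 19, 41862851 to 41896173, minus strand), stood at 26.9, 25.8, 17.98 and 23.6 CPM in KO 1 to 4, against 8.23, 10.1 and 11.5 CPM in controls 1 to 3. KO 3 again lay lowest among KO libraries and above the controls, and the log2 fold change was 1.25 (SE 0.17). Nob1, the endonuclease that makes the last cut of small-subunit RNA, was the most abundant at 53.8, 51.3, 36.0 and 47.6 CPM in KO 1 to 4, against 25.6, 23.6 and 28.5 CPM in controls 1 to 3, a log2 fold change of 0.87 (SE 0.14) with no overlap. Pno1, which holds Nob1 in place, stood at 15.2, 19.4, 16.01 and 16.4 CPM in KO 1 to 4, against 14.6, 16.4 and 18.6 CPM in controls 1 to 3. The groups overlapped in part, KO 2 lying above every control and control 1 below every KO library, and the log2 fold change was 0.02 (SE 0.12). The assembly factors Bysl and Ltv1 had log2 fold changes of 0.37 (SE 0.096) and 0.61 (SE 0.086). The exons of Bysl overlap those of Ccnd3 on the other strand.

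Large-subunit assembly was the biggest class, with 16 of 19 tested genes risen and a median of 0.68 on the log2 scale. Grwd1 (ENSMUSG00000053801, chromosome 7, 45825223 to 45830944, minus strand), given above, had the largest value. Noc2l, part of the early nucleolar particle, was the most abundant at 112, 102, 81.95 and 103 CPM in KO 1 to 4, against 51.2, 47.05 and 57.8 CPM in controls 1 to 3. Each KO library was above each control, and the log2 fold change was 0.94 (SE 0.12). Noc3l, which joins it in a later particle, had 0.42 (SE 0.093). Gnl3, nucleostemin, a nucleolar GTPase first described in stem cells, averaged 69.7 ± 14.5 CPM in KO libraries and 31.4 ± 2.03 CPM in controls, a log2 fold change of 1.15 (SE 0.16).

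Known complexes of this class could be read subunit by subunit. Pes1, Bop1 and Wdr12 form the PeBoW complex, and their log2 fold changes were -0.04 (SE 0.097), 0.53 (SE 0.093) and 0.60 (SE 0.13), so Bop1 and Wdr12 rose while Pes1 did not pass. Rpf2 and Rrs1, which place the small ribosomal RNA of the central protuberance, were close to each other at 0.90 (SE 0.14) and 0.83 (SE 0.1). Differences between partners of a complex were not tested. Methyltransferase genes Nop2 and Ftsj3 had 0.77 (SE 0.12) and 0.68 (SE 0.095). Mrto4, a placeholder for a stalk protein of the ribosome, had 0.83 (SE 0.14), Nop16 0.78 (SE 0.11), Rrp1b 0.97 (SE 0.1), Brix1 0.56 (SE 0.089) and Ebna1bp2 0.47 (SE 0.098). Among the rest, the helicase genes Ddx56 and Ddx18 had 0.36 (SE 0.092) and 0.12 (SE 0.088), and Nip7 had 0.23 (SE 0.088). Ddx18 and Nip7 did not pass, although every KO library of Nip7 was above every control.

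Ribosome biogenesis genes outside the 58 were counted over 156 further genes sorted by role, also listed with results of these data known. Of the 153 tested, 70 rose (45.8%), 4 fell (2.61%) and 79 did not pass, beside 23.0% and 22.2% of all genes tested. Their median log2 fold change was 0.25. Under library totals 127 rose and 0 fell in edgeR's test, with 129 higher and 0 lower at an unadjusted p under 0.05. On that scale 6373 of all 15512 genes tested rose and 1976 fell. DESeq2 and limma-voom, which were not run with library totals, each gave 65 risen and 5 fallen. The count of rises is sensitive to single libraries, being 39 without control 2 and 49 without KO 2 or without control 3. The count of falls was 1 or 2 on leaving out KO 1, KO 2, KO 4 or any of the controls, and 5 without KO 3. The 4 that fell were Naf1, an assembly factor of H/ACA particles, Tsr2, a chaperone of a small-subunit protein, the kinase gene Riok3 and Sbds, which helps to free the large subunit of an anti-association factor. Their log2 fold changes lay between -0.50 in Tsr2 and -0.26 in Riok3. An overlap with a gene on the other strand takes up 30.2% of the exon length of Tsr2.

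**Figure D3:**
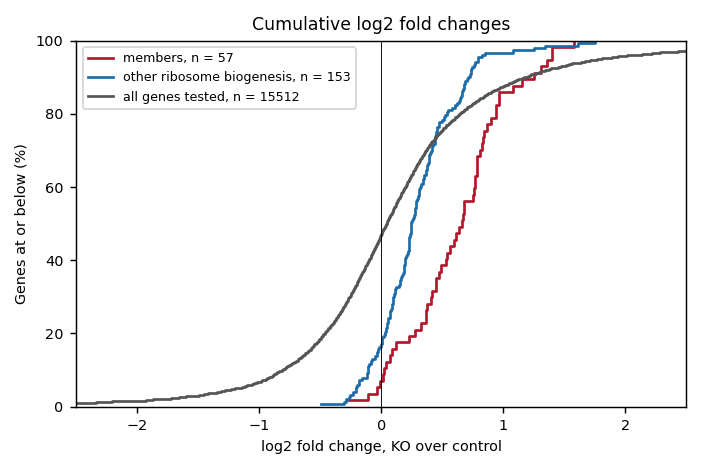
Cumulative share of genes (%) at or below a log2 fold change of KO over control, for the 57 tested members in red, 153 other ribosome biogenesis genes in blue and all 15512 tested genes in grey. The medians are 0.67, 0.25 and 0.04, and the red and blue curves span a narrower range than the grey one, whose axis is cut at -2.5 and 2.5.

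The other polymerase I genes had 5 of 8 risen (62.5%) and 0 fallen, beside 23.0% and 22.2% of all genes tested. Polr1g, the partner subunit of Polr1e, stood at 10.1, 9.96, 9.57 and 10.6 CPM in KO 1 to 4, against 6.77, 5.37 and 5.66 CPM in controls 1 to 3. The groups did not overlap (log2 0.76, SE 0.13, edgeR adjusted p = 0.00178). Taf1c, of the same selectivity factor as Taf1d, averaged 29.7 ± 2.62 CPM in KO libraries and 20.7 ± 2.30 CPM in controls (log2 0.52, SE 0.11, edgeR adjusted p = 0.00519). The other three that rose were Taf1a, Polr1h and the termination factor gene Ttf1, at log2 0.39, 0.39 and 0.23. Of the 5 subunits that polymerases I, II and III share, 3 rose (60%) and 0 fell. Polr2h had a log2 fold change of 0.85 (SE 0.16, edgeR adjusted p = 0.00225), Polr2f one of 0.73 (SE 0.15, edgeR adjusted p = 0.00442) and Polr2e one of 0.45 (SE 0.12, edgeR adjusted p = 0.0129).

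**Figure D4:**
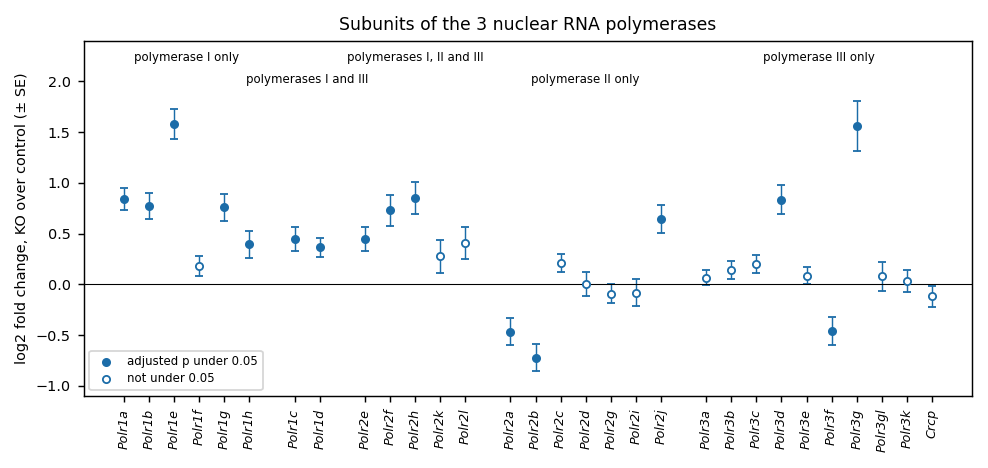
Log2 fold change of KO over control with its SE for subunits of RNA polymerases I, II and III, grouped by the enzyme that uses them, filled where the adjusted p was under 0.05 and open where it was not. The subunits used by polymerase I alone are all above 0, while those used by polymerase II alone lie on both sides of 0, between -0.72 in Polr2b and 0.64 in Polr2j.

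Subunits of the other enzymes were counted in the same way. Of 7 subunits used by polymerase II alone, 1 rose (14.3%) and 2 fell (28.6%), beside 23.0% and 22.2% of all genes tested. Polr2b, the second largest subunit, stood at 44.04, 57.4, 66.4 and 48.6 CPM in KO 1 to 4, against 88.1, 88.5 and 91.2 CPM in controls 1 to 3 (log2 -0.72, SE 0.13, edgeR adjusted p = 0.0022). Its exons overlap those of Igfbp7 on the other strand over 85 bases, and Igfbp7 had 666012 counts in the 7 libraries, so that the value of Polr2b is uncertain. Polr2a, the largest, had a log2 fold change of -0.47 (SE 0.13, edgeR adjusted p = 0.0197), and Polr2j one of 0.64 (SE 0.14, edgeR adjusted p = 0.00546). An overlap with a gene on the other strand takes up 15.9% of the exon length of Polr2j. Of 22 polymerase III subunits and factors 5 rose (22.7%), 1 fell (4.55%) and 16 did not pass, so the share risen was close to the 23.0% of all genes tested. Under library totals 14 of the 22 rose and 0 fell, with 15 higher and 0 lower at an unadjusted edgeR p under 0.05. Of the 7 polymerase II subunits 2 rose and 1 fell on that scale, and of all 15512 genes tested 6373 rose and 1976 fell. Polr3g, a subunit with a paralog, Polr3gl, averaged 3.87 ± 0.361 CPM in KO libraries and 1.31 ± 0.427 CPM in controls (log2 1.56, SE 0.25, edgeR adjusted p = 0.00118). Polr3d rose by 0.84 on the log2 scale (edgeR adjusted p = 0.00165), Gtf3c5 by 0.36 and Gtf3a by 0.41. The exons of Gtf3a overlap those of Mtif3 on the other strand over 59.1% of their length, so that its rise cannot be assigned to Gtf3a alone. Polr3f had a log2 fold change of -0.46 (SE 0.14, edgeR adjusted p = 0.0274). The difference between enzymes was not tested.

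Processing and assembly genes outside the 58 were counted by role, beside 23.0% risen and 22.2% fallen over all genes tested. Among 12 further snoRNP genes 7 rose (58.3%) and 1 fell (8.33%). Ruvbl2, an ATPase that assembles box C/D particles, had a log2 fold change of 0.74 (SE 0.11, edgeR adjusted p = 0.000812). Shq1, which chaperones dyskerin, had one of 0.76 (SE 0.14, edgeR adjusted p = 0.0027). Naf1 was at -0.27 (SE 0.095, edgeR adjusted p = 0.0463). Of 11 genes for transferases that modify ribosomal RNA 5 rose, led by the acetyltransferase gene Nat10 at 0.79 (SE 0.14) and the methyltransferase gene Rrp8 at 0.54 (SE 0.12, edgeR adjusted p = 0.0021 and 0.00531), with Emg1, Dimt1 and Nsun5 at 0.32, 0.74 and 0.36. Overlaps with a gene on the other strand take up 31.9% of the exon length of Dimt1 and 15.4% of that of Nsun5, so these 2 values are uncertain.

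In other small-subunit factors 12 of 41 tested rose (29.3%) and 2 fell (4.88%), beside 23.0% and 22.2% of all genes tested. Mphosph10, of the processome, rose by 0.67 and Rcl1, which joins the processome, by 0.68 on the log2 scale (edgeR adjusted p = 0.000773 and 0.00196). Tsr2 and Riok3 were at -0.50 (SE 0.095) and -0.26 (SE 0.077, edgeR adjusted p = 0.00282 and 0.0235). Of 52 other large-subunit factors 26 rose and 1 fell. Ppan, an early nucleolar factor, stood at 85.7, 74.5, 46.9 and 77.9 CPM in KO 1 to 4, against 23.7, 22.6 and 23.8 CPM in controls 1 to 3. KO 3 was lowest among KO libraries, as in most of the 57, and lay above the controls (log2 1.61, SE 0.19, edgeR adjusted p = 0.000205). Npm3, a relative of nucleophosmin, averaged 10.7 ± 1.27 CPM in KO libraries and 4.49 ± 0.311 CPM in controls (log2 1.25, SE 0.15, edgeR adjusted p = 0.000217). Sbds was at -0.30 (SE 0.089, edgeR adjusted p = 0.0214). Of 24 tested genes of the RNA exosome, other nucleases and RNase MRP 12 rose and 0 fell, in DESeq2 and limma-voom and at an unadjusted edgeR p under 0.05 as well, with the exosome subunits Exosc5 and Exosc2 at 0.73 (SE 0.11) and 0.71 (SE 0.1, edgeR adjusted p = 0.000992 and 0.000663). Exosc6 was listed at 0 in every library.

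Genes outside the pathway that moved in the same libraries are given by value. Myc stood at 312, 294, 152 and 241 CPM in KO 1 to 4, against 22.6, 28.1 and 21.4 CPM in controls 1 to 3. Mycn stood at 43.7, 27.4, 17.1 and 20.8 CPM in KO 1 to 4, against 1.60, 0.749 and 0.526 CPM in controls 1 to 3. Both were higher in every KO library, with log2 fold changes of 3.38 (SE 0.26) for Myc and 4.79 (SE 0.46) for Mycn (edgeR adjusted p = 2.62e-05 and 7.3e-05). Mycl had at most 0.30 CPM in any library and was not tested. Myc, Mycn and the summed level of the 58 genes were lowest, among KO libraries, in KO 3, as were 45 of the 57 tested genes one by one. The 7 mitotic genes, all risen, summed to 397.4, 381.3, 380.6 and 447.1 CPM in KO 1 to 4 and to 32.8, 24.86 and 57.02 CPM in controls 1 to 3. Of the 8 immediate-early genes 4 rose (7 in DESeq2, 4 in limma-voom, 7 at an unadjusted edgeR p under 0.05). All 8 had a log2 fold change above 0. Their sums were 18207.0, 14474.2, 8905.9 and 11249.7 CPM in KO 1 to 4 and 7960.9, 7660.1 and 6143.0 CPM in controls 1 to 3. KO 3 was the lowest KO library there too, and by a narrow margin for the mitotic genes. It also had the lowest KO sums of erythroid and platelet markers, at 5.88 and 29.0 CPM. Its endothelial marker sum, 17078.7 CPM, was the highest among KO libraries, while the hepatocyte sum was lowest in KO 2. As a median over genes in percent of the control mean, KO 3 was the lowest KO library for immediate-early genes (125.5%) and erythroid markers (109.1%). By that measure KO 2 was lowest for mitotic genes (1150.6%, KO 3 at 1289.1%) and platelet markers (245.3%, KO 3 at 307.7%). The part of MYC genes, cycling cells or immediate-early genes in the levels of the 58 genes was not tested.

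**Figure D5:**
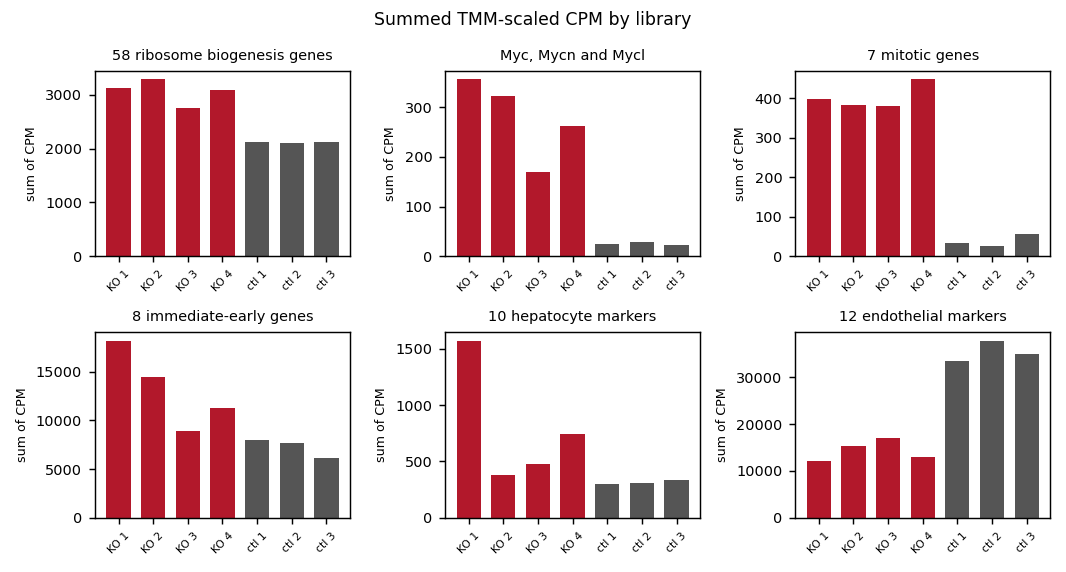
Summed TMM-scaled CPM in each library for 6 gene lists, with red bars for KO 1 to 4 and grey bars for controls 1 to 3 (ctl), each axis from 0. The sums of the 58 genes, the MYC family, the immediate-early genes and, narrowly, the mitotic genes are lowest in KO 3 among KO libraries. The endothelial markers are highest in KO 3 among KO libraries, and the hepatocyte markers are highest in KO 1.

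Markers of other liver cells moved in part with the genotype. The 10 hepatocyte markers summed to 1572.6, 377.5, 473.4 and 745.4 CPM in KO 1 to 4 and to 298.1, 306.3 and 337.9 CPM in controls 1 to 3, with 7 risen (1 in limma-voom) and none at 0 in any library. The part of hepatocyte RNA in the levels of the 58 genes was not tested. Without KO 1 and KO 4 the median log2 fold change of the 57 genes was 0.58 and 42 rose, all 42 among the 46. Without KO 2 and KO 3 it was 0.69 and 44 rose. Over all genes tested, 2234 of 15419 rose without KO 1 and KO 4, and 3737 of 15615 without KO 2 and KO 3. The hepatocyte sums of KO 2 and KO 3 also lay above each control, so leaving out KO 1 and KO 4 does not remove that difference. The 7 erythroid markers summed to 5.88 to 40.0 CPM in KO libraries and 2.59 to 10.2 CPM in control libraries, with 0 of 5 tested past the threshold (1 in DESeq2, 0 in limma-voom, 3 at an unadjusted edgeR p under 0.05). The 5 platelet markers summed to 29.0 to 42.5 CPM in KO libraries and 16.5 to 20.4 CPM in control libraries, with 4 risen and Gp9 at 0 in control 2. Of stellate cell markers 4 of 6 fell (3 in limma-voom). Their sums overlapped, at 6.61 to 36.1 CPM in KO libraries and 13.7, 31.7 and 121.4 CPM in controls 1 to 3. Of Kupffer cell markers 0 of 6 passed, with 0 also in DESeq2, in limma-voom and at an unadjusted edgeR p under 0.05.

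The scale of the libraries bears on how large these values are. TMM factors were 1.043 to 1.135 in KO libraries and 0.8767 to 0.9211 in control libraries. Rises made up 50.81% of all calls under TMM, 63.43% under upper-quartile factors and 76.33% under library totals. The median log2 fold change of all genes was 0.17 under upper-quartile factors and 0.31 under library totals. The median of the 57 genes was 0.79 and 0.93 on those scales, and its distance from the median of all genes was 0.62 on all 3 scales. Rrn3 and Pes1 were below 0 under TMM (-0.11 and -0.04) and under DESeq2 size factors (-0.13 and -0.06), and above 0 under the scalings that shifted all genes upward, at 0.01 and 0.09 under upper-quartile factors and 0.15 and 0.23 under library totals, while Utp14a was at -0.27 under TMM, -0.14 under upper-quartile factors and -0.00302 under library totals.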

How the data were processed

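The authors deposited raw read counts per Ensembl gene for 7 libraries in 1 table. Per the labels' protocols, RNA came from sorted cells and libraries were made with an unstranded or a stranded TruSeq kit, without saying which. FastQC 0.11.5, STAR 2.7.6a and build GRCm38 were used, per the submitters' processing notes. The sources used here do not name the counter, the annotation, the strand mode or a filter. Gene symbols came from the reference name table, for 52403 of 52636 IDs, and coordinates from GENCODE vM21 on GRCm38. Polr1f, Polr1g and Polr1h are Twistnb, Cd3eap and Znrd1 there.

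Counts were analysed in R 4.3.3 with edgeR 4.0.16: filterByExpr (minimum count 10, minimum total 15), TMM scaling, glmQLFit and glmQLFTest of KO against control with no covariate, Benjamini-Hochberg adjustment over 15512 genes and a threshold of 0.05. SE is the absolute log2 fold change over the square root of F. The fit was tested on simulated data. Depth was 24772716 to 32960007 counts per library, and 3 counts, the limit for a count of 0, are 0.0873 to 0.132 CPM. This covers counting error only. Libraries of the same group always differed by more than sampling noise, at a chi-square of 14.43 to 108.3 for each degree of freedom.

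The members and the lists were chosen with earlier results of these data known. Values of every library are given for the member of each class with the highest mean CPM, the largest and the smallest log2 fold change, and up to 2 rises and 2 falls per other list are named by smallest p. Values of Tsr1 and other members are means, and Riok2 was not analysed here. Some genes counted in the lists are not reported here by name. As alternatives, other scalings (DESeq2, upper quartile, library totals), other filters, DESeq2 1.42.0, limma-voom (limma 3.58.1), a lane covariate, the libraries of lane 5, a replicate block, and fits without pairs of KO libraries or without each library were run.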

Additional observations from a re-analysis of the deposited data

Results flagged for a closer look

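In the 4 KO libraries, each of the 57 tested genes was checked for a library whose gap to its nearest neighbour took up most of the range of the group, beyond Dixon's critical value for 4 samples. Chance alone flags about 1 in 20 groups, and 6 of the 57 were flagged. KO 3 was the low library in 4 of them. The gap of KO 3 was 0.948 of the range in Mrto4, 0.904 in Nop2, 0.871 in Nolc1 and 0.85 in Utp4. KO 2 was the high library in the other two, with a gap of 0.908 of the range in Polr1c and 0.832 in Bysl. All 6 of these genes rose, and each KO library of each of them was above every control library.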

How the results depend on the processing

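Between 41 and 52 members rose and 0 fell over the 19 alternative settings. Over all genes tested, rises ran from 2234 of 15419 without KO 1 and KO 4 to 6373 of 15512 under library totals. Falls ran from 1976 of 15512 under library totals to 3990 of 15615 without KO 2 and KO 3. Library totals moved the median log2 fold change of the members to 0.93. For the other ribosome biogenesis genes, library totals gave 127 rises, 0 falls and a median of 0.51, and upper-quartile factors gave 1 fall and a median of 0.37. Over all 15512 genes tested, library totals gave 6373 rises and 1976 falls. With no filter on low counts 1 of the other ribosome biogenesis genes fell, beside 3150 of all 28753 genes tested. Without KO 1 and KO 4 together 43 of the other ribosome biogenesis genes rose and 1 fell. Of all 15419 genes tested in that fit 2234 rose and 2420 fell. Whether the replicate numbers pair the samples is not known from the labels. Same-numbered KO and control libraries correlated at -0.00851, 0.154 and 0.0693 in their deviations from the group means, which cannot settle it. With the replicate block, which drops KO 4, 42 members and 40 other genes rose and 1 other gene fell. Of all 15109 genes tested with that block 2448 rose and 2607 fell. Over fits that left out 1 library each, other genes that rose numbered 39 to 73 and those that fell 1 to 5. In those fits 2379 to 3769 of all genes tested rose and 2584 to 3930 fell. The cause of these shifts was not tested beyond the smaller number of libraries. Among the 18 members given by library, no called value changed its sign. Ncl missed the threshold in 12 settings, and Ubtf and Ddx21 passed it with library totals only. Low counts limit Wdr74 alone among the members.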
